A study of Mus musculus with 16 samples.

Results

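The lncRNA *Kcnq1ot1* and the coding gene *Kcnq1*, whose introns it crosses in antisense, were described across the imprinted domain at the distal end of mouse chromosome 7. They are 2 of the 10176 RNA names listed in Input and of the 10660 listed in H3K27me3-RADIP, and their pairs were found by the RNA name given in each table. They were chosen by the number and the distance of *Kcnq1ot1* pairs in H3K27me3-RADIP against Input, so these differences are given as a description with no test. In RADIP an RNA is ligated to chromatin DNA close by, with a bridge adaptor between them, and an antibody then recovers the chimeric molecules. Both groups came from PGK12.1 mESCs crosslinked in 1% formaldehyde. H3K27me3-RADIP was recovered with an antibody against H3K27me3, the histone mark of Polycomb repression, and Input was the part of the same sonicated mixture kept back before the antibody. The labels list 8 libraries in each group, the study counts 4 biological replicates without labels that tie libraries to them, and the authors merged them all, so there was 1 table of significant pairs per group and no replicate error.

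*Kcnq1ot1* is transcribed from the paternal chromosome, from the imprinting control region inside *Kcnq1*, and silences neighbouring genes in *cis*. Its silencing is known to involve Polycomb complexes and the histone methyltransferase G9a, and to reach further in the placenta than in the embryo. *Kcnq1* encodes the pore-forming subunit of a voltage-gated potassium channel. Since alleles were not separated, no value below belongs to 1 parental chromosome.

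On mm10, *Kcnq1ot1* (ENSMUSG00000101609.2, annotated as antisense) spans chr7:143203458-143296549 on the minus strand, 93.1 kb. *Kcnq1* (ENSMUSG00000009545.14) spans chr7:143106362-143427042 on the plus strand, 321 kb, so *Kcnq1ot1* lies wholly inside it. The end of *Kcnq1ot1* points towards the centromere. On the side of its start only 2.14 Mb are left to the end of the chromosome. Tag strand was used by the authors when RNA tags were assigned to genes, and all *Kcnq1ot1* tags lay on the minus strand and all *Kcnq1* tags on the plus strand.

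The sequence around the *Kcnq1ot1* start is shown because the 25-kb bin that holds it and the next bin before the start differed in their change, as given below. From RefSeq (GRCm38.p6, chr7:143296498-143296797, minus strand, 250 bases before to 50 after the start), with CCAAT in capitals, it reads as follows.
Kcnq1ot1 promoter: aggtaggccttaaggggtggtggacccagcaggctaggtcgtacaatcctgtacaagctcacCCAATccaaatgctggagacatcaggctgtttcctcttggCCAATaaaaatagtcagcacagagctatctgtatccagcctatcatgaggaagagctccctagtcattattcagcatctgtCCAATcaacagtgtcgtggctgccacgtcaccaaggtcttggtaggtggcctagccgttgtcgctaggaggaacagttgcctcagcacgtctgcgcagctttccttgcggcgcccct
It holds CCAAT at 3 places on the RNA's own strand and ATTGG, its reverse complement, nowhere. CCAAT on either strand occurs in 37.4% of 32817 RefSeq promoter windows of 300 bases, and 3 or more matches in 3.37%. The window has 9 CG dinucleotides, against a median of 7, and 45.8% of all windows have as many or more. TGCCGC, the other motif searched, occurs on neither strand of this window and in 11.6% of all windows. These matches are a description of the letters in this window. Within 2.5 kb of the middle of the window, *Kcnq1ot1* had 31 DNA tags in Input and 22 in H3K27me3-RADIP.

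A few RNA positions were used more than others, and the leading 2 of H3K27me3-RADIP are shown as examples of which parts of the transcript were joined to DNA. Each is a 24-base tag span read from the same genome in the direction of the RNA.
Kcnq1ot1 RNA, 35.2 kb from the start, chr7:143261366-143261389: aatggacactcactgtgacacatg
Kcnq1ot1 RNA, 8.64 kb from the start, chr7:143287898-143287921: aatccacattttaaaaggctcttc
The first was in 18 pairs in Input and 57 in H3K27me3-RADIP, which lay in 15 and 45 bins. The second was in 25 and 46 pairs, in 23 and 36 bins, and led in Input, where the first was tied with 2 others behind a position with 19 pairs. Neither stood for much of the RNA, as the tags fell at 3811 distinct positions in Input and 6670 in H3K27me3-RADIP.

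Pair counts were normalised to 1000000 pairs of each library, and ratios below are of these normalised counts in H3K27me3-RADIP over Input. *Kcnq1ot1* made 4099 normalised pairs in Input (95% Wilson interval 3991 to 4210.4) and 7871 in H3K27me3-RADIP (7727 to 8018), a ratio of 1.92 (exact 95% interval 1.86 to 1.98). *Kcnq1* made 101 and 281 pairs, or 77.4 and 199 after normalisation, a ratio of 2.57 (2.04 to 3.25). These intervals and all that follow cover counting error only, because the libraries were merged and carry no molecular identifiers. Both members are among the 5540 RNAs with at least 50 pairs over both tables, of which 665 (12.0%) were more than 1.5-fold higher in H3K27me3-RADIP, and the median ratio was 0.955. The share was 24.7% among 166 lncRNAs and 11.6% among 5359 coding RNAs. In this order of ratios 262 of the 5540 RNAs stood above *Kcnq1ot1* and 97 above *Kcnq1*. Of the 202 RNAs with at least 1000 Input pairs, none had a higher ratio than *Kcnq1ot1*. By number of pairs it was the 14th RNA of Input and the 5th of H3K27me3-RADIP. Among lncRNAs it moved from rank 2 of 852 to rank 1 of 1002, with 13.7% and 21.8% of their pairs. In cell populations like these, fewer cells with an RNA and less RNA per cell cannot be told apart.

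The cells were checked against ESC markers. The ESC list had pairs for 5 of 12 genes in Input and 6 of 12 in H3K27me3-RADIP, led by *Esrrb* with 2388 and 2500 pairs, while *Pou5f1* and *Nanog* were not listed in either table. Trophoblast genes were 1 of 5 in both, *Gata3* with 7 and 19 pairs, and *Cdx2*, *Elf5*, *Eomes* and *Hand1* were not listed. The fibroblast list had 1 and 2 of 5 genes, and the endoderm list 2 of 4 in both tables. The tables hold significant pairs and not RNA levels, so an unlisted gene is not a gene without RNA.

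Listed pairs of *Kcnq1ot1* with the chromatin around it did not differ evenly between the libraries. Pairs of *Kcnq1ot1* with its own gene body fell, pairs on both sides of it rose, and a stretch beyond *Phlda2* stayed low in both libraries. DNA tags inside the gene went from 649 to 567, a ratio of 0.806 (0.719 to 0.903). In the first 100 kb past the end of the gene, on the centromere side, the ratio was 1.72 (1.53 to 1.93), and in the first 100 kb before its start it was 2.02 (1.78 to 2.30). Out to 1 Mb the other zones lay between 1.56 and 1.90.

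**Figure D1:**
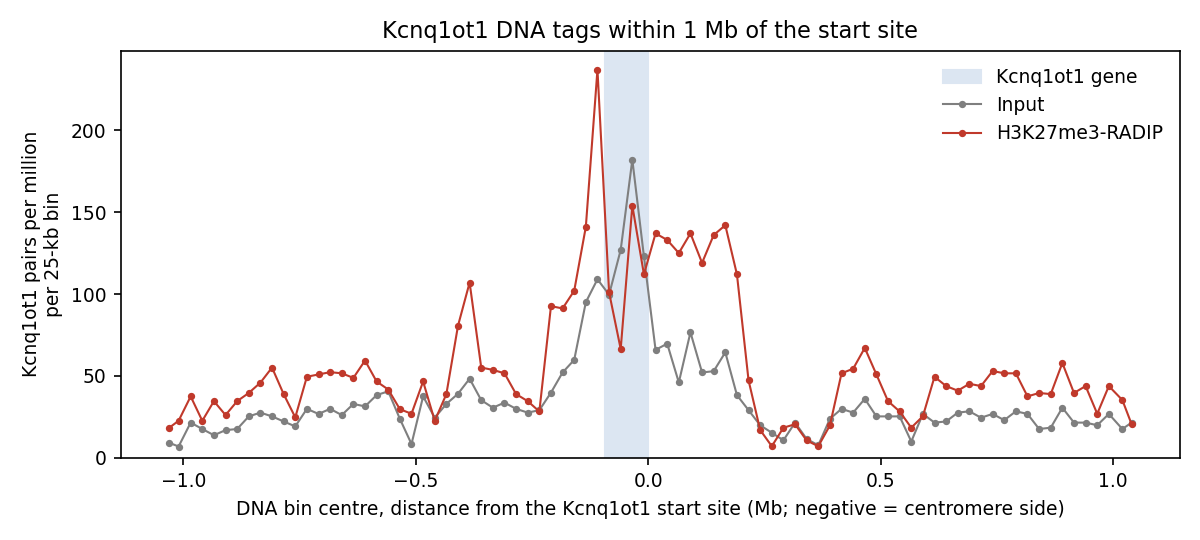
Normalised *Kcnq1ot1* pairs (per 1000000 pairs of the library) in each 25-kb DNA bin (y axis) against the distance of the bin centre from the *Kcnq1ot1* start site in Mb (x axis), for Input (grey) and H3K27me3-RADIP (red), with the gene shaded. H3K27me3-RADIP is below Input over most of the gene, above it on both sides, and close to it between about 0.24 and 0.39 Mb before the start.

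The step at the start site was sharp. The bin that holds the start of the gene, chr7:143275001-143300000, held 161 Input pairs and 159 H3K27me3-RADIP pairs of *Kcnq1ot1*, a ratio of 0.911 (0.727 to 1.14). The next bin, chr7:143300001-143325000, held 86 and 194 pairs, a ratio of 2.08 (1.61 to 2.71). From there to *Phlda2*, over 200 kb and 8 bins, *Kcnq1ot1* rose from 608 to 1473 pairs, a ratio of 2.23 (2.03 to 2.46), and all 8 bins were more than 1.5-fold higher, with ratios from 1.79 to 2.91. Over all RNAs, 12.3% of the 48606 RNA-bin combinations that both libraries list were more than 1.5-fold higher and 18.0% more than 1.5-fold lower. Of the 171 bins of *Kcnq1ot1* listed in both, 82 (48.0%) were higher and 5 (2.92%) lower, with a median ratio of 1.48 against 0.922 for all combinations.

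The 5 bins with the largest gain in normalised pairs all lay within 0.2 Mb of the start. The first, chr7:143175001-143200000, is an intronic stretch of *Kcnq1* just past the annotated end of *Kcnq1ot1*, and its pairs went from 142 to 336, a ratio of 2.18 (1.79 to 2.67). On the start side the bin chr7:143425001-143450000, at the end of *Kcnq1*, went from 69 to 192 pairs. The bin chr7:143350001-143375000, where *Kcnq1* overlaps *4933417O13Rik*, went from 60 to 177. The remaining 2 cover *Cdkn1c* and *Slc22a18*, with 84 and 201 pairs, and the body of *Slc22a18*, with 50 and 158. The largest loss was in chr7:143225001-143250000 inside *Kcnq1ot1*, from 166 to 94 pairs, a ratio of 0.522 (0.401 to 0.677). Next came 2 more gene-body bins, chr7:143250001-143275000 with 237 and 218 pairs and the bin at the start site given above, neither outside counting error. The remaining bin of the gene, chr7:143200001-143225000, had 130 and 143 pairs, a ratio of 1.01 (0.794 to 1.30). Bins listed in Input alone had at most 14 pairs.

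Within the gene the loss was not spread evenly. When the gene was cut into 10 equal parts from its start, DNA tags in part 7, which lies 55.9 to 65.2 kb from the start, went from 94 to 21, a ratio of 0.206 (0.122 to 0.333). Without part 7 the gene went from 555 to 546 pairs, a ratio of 0.907 (0.805 to 1.02), so the fall over the whole gene was not outside counting error without it. Part 9 went from 51 to 31, a ratio of 0.561 (0.347 to 0.893). Part 10 rose instead, from 47 to 82 pairs, a ratio of 1.61 (1.11 to 2.35). The intervals of the other 7 parts included 1.

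RNA tags fell along *Kcnq1ot1* in nearly the same proportions in both libraries. All its tags were annotated as exon, as the gene is unspliced. The first 5 of these 10 parts supplied the RNA tag of 86.4% of Input pairs and of 85.1% of H3K27me3-RADIP pairs, a difference of -1.36 percentage points (-2.48 to -0.215). With repeated tag positions counted once it was -1.16 (-2.33 to 0.0420), an interval that includes 0. The median tag lay 23.8 kb from the start in Input and 24.9 kb in H3K27me3-RADIP, and 95% of tags lay within 58.4 and 59.8 kb. Tags from the last 3 parts of the gene were rare, at 1.10%, 0.393% and 0.355% of Input pairs and 1.26%, 0.467% and 0.323% of H3K27me3-RADIP pairs. The share of pairs over 1 Mb was similar for RNA tags from each of the first 7 parts, 26.8% to 31.8% in Input and 37.0% to 41.6% in H3K27me3-RADIP. DNA tags showed no strand preference, with 50.7% and 50.5% on the plus strand.

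**Figure D2:**
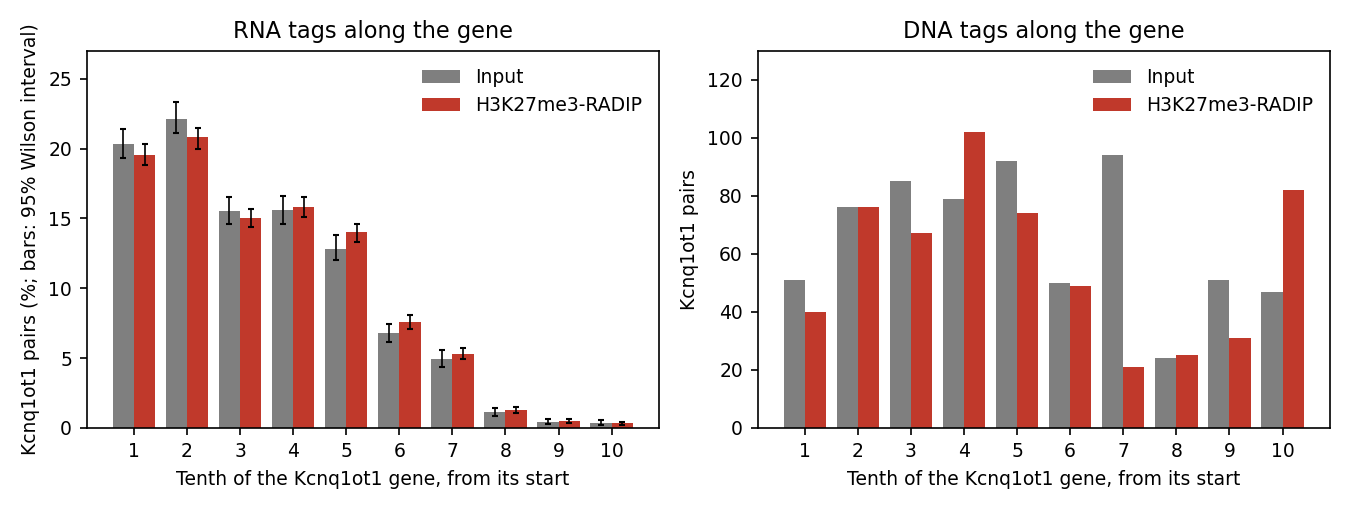
Left, share of *Kcnq1ot1* pairs (%) by the part of the gene (10 equal parts from its start) in which the RNA tag lies, with 95% Wilson intervals. Right, number of *Kcnq1ot1* pairs by the part in which the DNA tag lies. RNA tags are most frequent in part 2 and rare near the end of the gene in both libraries, while DNA tags in part 7 go from 94 in Input to 21 in H3K27me3-RADIP.

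Genes of the domain were read at the 25-kb bin of their transcription start. Of the 37 listed genes of the domain and its neighbours, in 29 distinct bins, *Kcnq1ot1* had pairs at 36 in Input and 37 in H3K27me3-RADIP. Of the 36 genes whose bin was listed in both, it was more than 1.5-fold higher at 21 and more than 1.5-fold lower at 0, and genes that share a bin share its value. This is to be read beside the 48.0% of all its shared bins, and the 12.3% over all RNAs, that passed the same fold. *Ccnd1*, a cell cycle gene, had 11 pairs in H3K27me3-RADIP and was not listed in Input, so it has no ratio.

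Genes known to be silenced in both embryo and placenta all gained *Kcnq1ot1* pairs. *Cdkn1c*, the cyclin-dependent kinase inhibitor p57, and *Slc22a18*, a membrane transporter, start in the same bin, which went from 84 to 201 pairs, a ratio of 2.21 (1.70 to 2.88). *Kcnq1* went from 68 to 129 pairs at its start, a ratio of 1.75 (1.29 to 2.38). *Phlda2*, a small PH-domain protein that restrains placental growth, went from 38 to 67, a ratio of 1.63 (1.08 to 2.49). The RNAs of *Cdkn1c* and *Phlda2* were not listed in either library, and *Slc22a18* RNA had 15 pairs in H3K27me3-RADIP and was not listed in Input.

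Among the 7 genes known for silencing in the placenta, 2 passed 1.5-fold. *Ascl2*, a trophoblast transcription factor, went from 40 to 76 pairs, a ratio of 1.75 (1.18 to 2.64), and *Osbpl5*, an oxysterol-binding protein, from 47 to 95, a ratio of 1.86 (1.30 to 2.70). *Tspan32*, a tetraspanin, had 39 and 55 pairs, a ratio of 1.30 (0.847 to 2.01). The shared bin of *Cd81*, another tetraspanin, and *Tssc4* had 38 and 40. The TNF receptor genes *Tnfrsf22* and *Tnfrsf23* had 15 and 15 pairs and 31 and 28 pairs. Ratios at these 7 genes, in 6 distinct bins, ran from 0.833 to 1.86 with a median of 1.14 over bins. At the 4 genes of the first group, in 3 distinct bins, they ran from 1.63 to 2.21 with a median of 1.75. For the other neighbours and the *H19* domain, described next, the medians over bins were 1.66 (14 bins) and 1.57 (7 bins).

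Genes between or beyond them were as mixed. Of 16 other neighbours with a ratio 10 passed 1.5-fold. *Trpm5*, a taste-cell cation channel next to *Kcnq1*, went from 52 to 131 pairs, a ratio of 2.32 (1.67 to 3.27). The shared bin of the growth factor genes *Fgf3* and *Fgf4*, over 1.5 Mb from the start, went from 9 to 31, a ratio of 3.18 (1.48 to 7.59). Its 9 Input pairs are the fewest that any listed *Kcnq1ot1* bin had in Input. *Th*, the enzyme tyrosine hydroxylase, went from 46 to 78, a ratio of 1.56 (1.07 to 2.30). *Nap1l4*, a histone chaperone, had 26 and 24 pairs and *Cars*, a tRNA synthetase, 28 and 29. In the neighbouring *H19* domain 5 of 9 genes passed, with 35 and 72 pairs at *H19*, a ratio of 1.90 (1.25 to 2.93), 43 and 69 at *Igf2* and 53 and 59 at *Ins2*.

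Several of the bins that did not gain lay next to each other. Between *Phlda2* and *Osbpl5*, a stretch of 175 kb with *Nap1l4*, *Cars* and the TNF receptor genes, *Kcnq1ot1* went from 151 to 181 pairs, a ratio of 1.11 (0.886 to 1.38), and 2 of its 7 bins, at *Phlda2* (1.63) and in *Cars* (1.71, 0.862 to 3.55), passed 1.5-fold. Bins without a gain also lay elsewhere, such as those of *Cd81* with *Tssc4* and of *Ins2*. Its level dropped at *Phlda2* in both libraries, from 76.0 pairs per bin before it to 21.6 in Input, and from 184 to 25.9 in H3K27me3-RADIP. From *Osbpl5* to 1 Mb it rose again to 32.1 and 59.9 pairs per bin, a ratio of 1.72 (1.58 to 1.88), and 18 of those 25 bins passed 1.5-fold. *Cars* and *Nap1l4* had RNA pairs of their own, 393 and 685 and 144 and 191, while no pairs of *Tnfrsf22*, *Tnfrsf23* or *Tnfrsf26* RNA were listed.

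**Figure D3:**
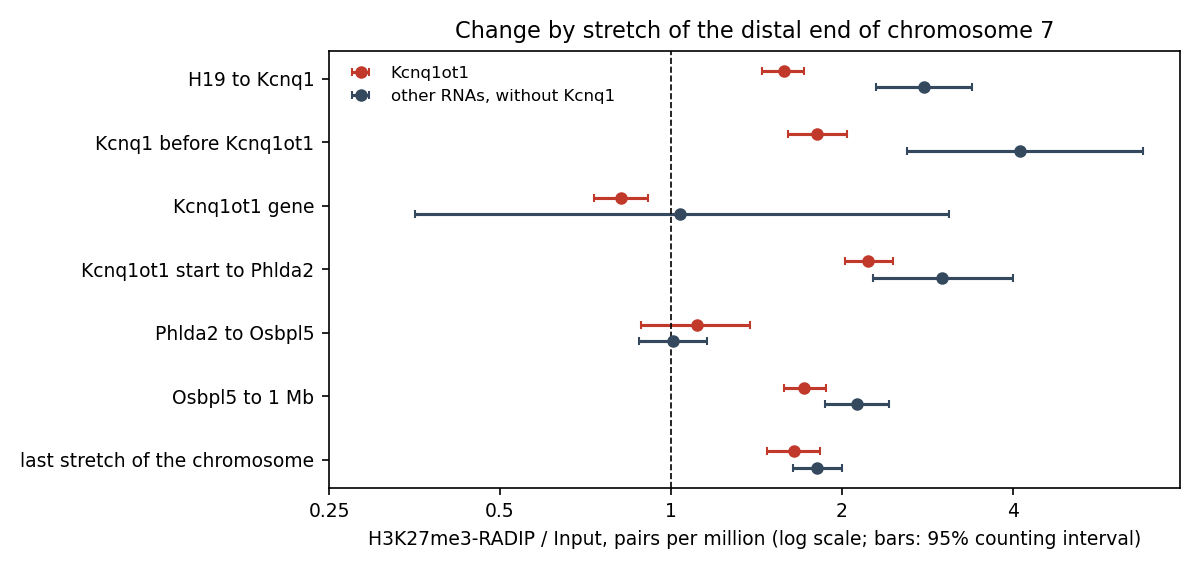
Ratio of normalised pairs in H3K27me3-RADIP over Input (x axis, log scale) in 7 neighbouring stretches of distal chromosome 7, for *Kcnq1ot1* (red) and for all RNAs other than *Kcnq1ot1* and *Kcnq1* together (dark), with exact 95% counting intervals, over all bins listed in each library. At the *Kcnq1ot1* gene the *Kcnq1ot1* ratio is under 1 and the dark point rests on 8 and 9 pairs, between *Phlda2* and *Osbpl5* the intervals of both include 1, and elsewhere both are over 1.

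RNAs other than *Kcnq1ot1* and *Kcnq1* were counted over the same chromatin. From the start of *Kcnq1ot1* to *Phlda2* their pairs went from 67 to 218, a ratio of 3 (2.27 to 4.01), and over the 5 RNA-bin combinations listed in both libraries from 58 to 98, a ratio of 1.56 (1.11 to 2.19). On the *Kcnq1ot1* gene they had 8 and 9 pairs, too few to show a change. Between *Phlda2* and *Osbpl5* they went from 386 to 423, a ratio of 1.01 (0.878 to 1.16). From *Osbpl5* to 1 Mb they went from 343 to 791, a ratio of 2.13 (1.87 to 2.42), and over combinations listed in both the ratio was 1.32 (1.14 to 1.54). From *H19* to *Kcnq1* these ratios were 2.79 and 1.20 (0.933 to 1.55), so the larger ratios include bins listed in 1 library. At the *Cdkn1c* bin these RNAs went from 9 to 62, and the 1 combination listed there in both went from 9 to 32, a ratio of 3.28 (1.53 to 7.81). Over chr7:143100001-143500000 *Kcnq1ot1* supplied 89.6% of the Input pairs and 82.8% of the H3K27me3-RADIP pairs, with the rest from 6 other RNAs in Input and 10 in H3K27me3-RADIP. *Cars* had 37 and 126 pairs there, and *Fgfr2*, a growth factor receptor gene nearer the centromere, had 10 and 95. Levels of H3K27me3 on this DNA and amounts of each RNA in the cells were not analysed here, so their parts in these ratios were not tested.

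*Kcnq1* RNA had far fewer pairs. Its tags were 97.0% intronic in Input and 97.5% in H3K27me3-RADIP. All its pairs were within 0.270 Mb and 0.322 Mb, with a median distance of 5.61 and 11.6 kb, and it had 9 listed bins in Input and 13 in H3K27me3-RADIP, 7 of them shared. More than 1.5 times as many bins were listed for 897 of the 5540 RNAs (16.2%). The fraction of its pairs over 100 kb was 16.8% and 19.6%, a difference of 2.74 points (-6.73 to 10.6) that was not detectable at this depth. No *trans* pair was listed for either gene in either library. Because bins under the limit of significance are absent from the tables, this sets no bound on *trans* pairs.

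Fewer of the listed DNA tags of *Kcnq1* lay on the *Kcnq1ot1* gene in H3K27me3-RADIP. They numbered 32 of 101 there in Input, 31.7% (23.4 to 41.3), and 11 of 281 in H3K27me3-RADIP, 3.91% (2.20 to 6.87). In the part of *Kcnq1* beyond *Kcnq1ot1* they numbered 23 and 138, 22.8% (15.7 to 31.9) and 49.1% (43.3 to 54.9). The part before *Kcnq1ot1* held 36.6% and 36.3%. The bins chr7:143225001-143250000 and chr7:143275001-143300000 were listed with 9 and 16 pairs in Input and were not listed in H3K27me3-RADIP. The 1 bin of this gene listed in both, chr7:143250001-143275000, had 8 and 11 pairs, a ratio of 1.27 (0.465 to 3.63), so the lower number rests on the 2 bins listed in Input alone. Conversely, the bins chr7:143325001-143350000, chr7:143350001-143375000 and chr7:143375001-143400000 held 26, 27 and 32 pairs in H3K27me3-RADIP and were not listed in Input. An unlisted bin is one below the limit of significance, so no fold was computed for it, and the fewest pairs in a listed *Kcnq1* bin were 8 and 9.

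**Figure D4:**
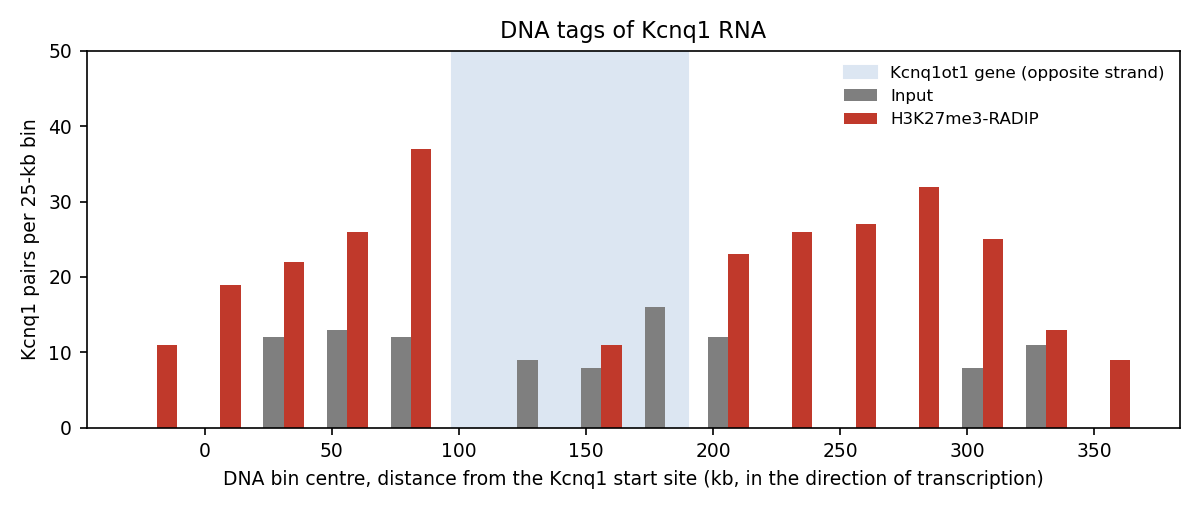
*Kcnq1* pairs in each 25-kb DNA bin (y axis) against the distance of the bin centre from the *Kcnq1* start in kb (x axis), with the *Kcnq1ot1* gene shaded. A missing bar is an unlisted bin. H3K27me3-RADIP has 1 bar inside the shaded gene and peaks of 37 and 32 pairs on its 2 sides.

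The RNA tags of *Kcnq1* were counted over the same 3 parts of the gene. Opposite *Kcnq1ot1* there were 3.01 tags per 10 kb of gene in Input and 3.44 in H3K27me3-RADIP. Before it there were 4.12 and 11.1, and after it 2.53 and 10.8. The middle part was the lowest of the 3 in H3K27me3-RADIP and not in Input. RNA and DNA tags of the same pairs were counted, so these 2 views of *Kcnq1* are not independent.

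Measured by the cosine of their pair counts over chromosome 7 bins, *Kcnq1* and *Kcnq1ot1* had a similarity of 0.641 in Input and 0.704 in H3K27me3-RADIP. *Kcnq1ot1* was the RNA most like *Kcnq1* in both libraries, among 71 and 79 RNAs with at least 10 bins there. The RNAs of that kind most like *Kcnq1ot1* were *Shank2* (0.203), *Cars* (0.122), *Mob2* (0.0875), *Ppfia1* (0.0743) and *Ap2a2* (0.0472) in Input. In H3K27me3-RADIP they were, after *Kcnq1*, *Cars* (0.283), *Shank2* (0.258), *Nap1l4* (0.211) and *Mob2* (0.133). All of these lie within 2 Mb of *Kcnq1ot1*, and each value describes 1 library with no test.

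Around its gene the listed bins of *Kcnq1ot1* formed an unbroken run of 124 bins, 3.10 Mb, in Input and 135 bins, 3.38 Mb, in H3K27me3-RADIP, both beginning at chr7:141750001-141775000. The run held 86.4% of its Input pairs and 73.2% of its H3K27me3-RADIP pairs. Within 2.1 Mb the centromere side had 2037 and 3650 pairs and the telomere side 2141 and 4176, with ratios of 1.65 (1.56 to 1.75) and 1.80 (1.71 to 1.90). Over 1 Mb away, the bins with most H3K27me3-RADIP pairs were 2 in *Shank2*, a synaptic scaffold gene, with 19 and 61 and 23 and 50 pairs, 2 in *Ano1*, a chloride channel gene, with 19 and 45 and 23 and 41, and, tied, 1 in the mucin gene *Muc2*, with 15 and 39, and 1 at *Gm34964*, with 10 and 39. Those with most Input pairs lay in *Ano1* (34 and 30 pairs), *Shank2* (28 and 29, 27 and 33), *Muc5ac* (26 and 28) and *Brsk2* with *Mob2* (26 and 25). These bins were picked by their Input count, and from 1 to 2 Mb as a whole the ratios were 1.62 (1.42 to 1.85) on the centromere side and 1.63 (1.46 to 1.80) on the telomere side.

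Beyond 5 Mb many more bins were listed in H3K27me3-RADIP. On the centromere side *Kcnq1ot1* had 243 pairs over 23 bins in Input and 1945 pairs over 190 bins in the other library, a ratio of 7.38 (6.46 to 8.47) between sums over different sets of bins. In the 13 bins listed in both, pairs numbered 137 and 133, a ratio of 0.895 (0.700 to 1.14). The most distant pair was 32.1 Mb away in Input and 64.8 Mb in H3K27me3-RADIP. Of these 190 bins, 91 with 997 pairs were 5 to 10 Mb from the gene and 46 with 457 pairs 10 to 15 Mb, and 19 with 181 pairs lay 30 to 35 Mb away, among them 6 that overlap the glycosyltransferase gene *Galnt18* and 2 that overlap *Mical2*, an actin regulator. The whole share of pairs over 1 Mb was 28.5% and 40.5%, a difference of 12.0 points (10.5 to 13.5). It was higher in H3K27me3-RADIP for 499 of 5540 RNAs (9.01%), and 13 of 5538 gained more than *Kcnq1ot1*, with a median difference of 0 over all RNAs. Among the 202 RNAs with at least 1000 Input pairs, 7 gained more. RNAs with no listed pair over 1 Mb in either library, such as *Kcnq1* and *Airn*, have a difference of 0 and count as not higher. The 9.01% is therefore not a share of the RNAs that reach 1 Mb.

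These distant bins were weak, and the gain lay in bins listed in 1 library. They held a median of 10 pairs in both libraries, with at most 14 in Input and 21 in H3K27me3-RADIP, and the fewest pairs in any listed *Kcnq1ot1* bin were 9 and 8. From 1 to 5 Mb the 76 shared bins had a ratio of 1.43 (1.32 to 1.54), and within 1 Mb the 82 shared bins had 1.76 (1.68 to 1.83). Over shared bins alone, the share of pairs over 1 Mb differed by -2.66 points (-4.16 to -1.18), in the opposite direction. With bins of H3K27me3-RADIP kept only from 10 pairs, which is the lowest Input count scaled to the library totals, the difference was 6.35 points (4.81 to 7.86). Kept only from 19 pairs, the same count scaled to the *Kcnq1ot1* totals, it was -8.36 points (-9.86 to -6.88). Input bins were not cut, and with a median of 10 pairs most distant H3K27me3-RADIP bins fell under 19. This last value therefore cannot show a change with distance.

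**Figure D5:**
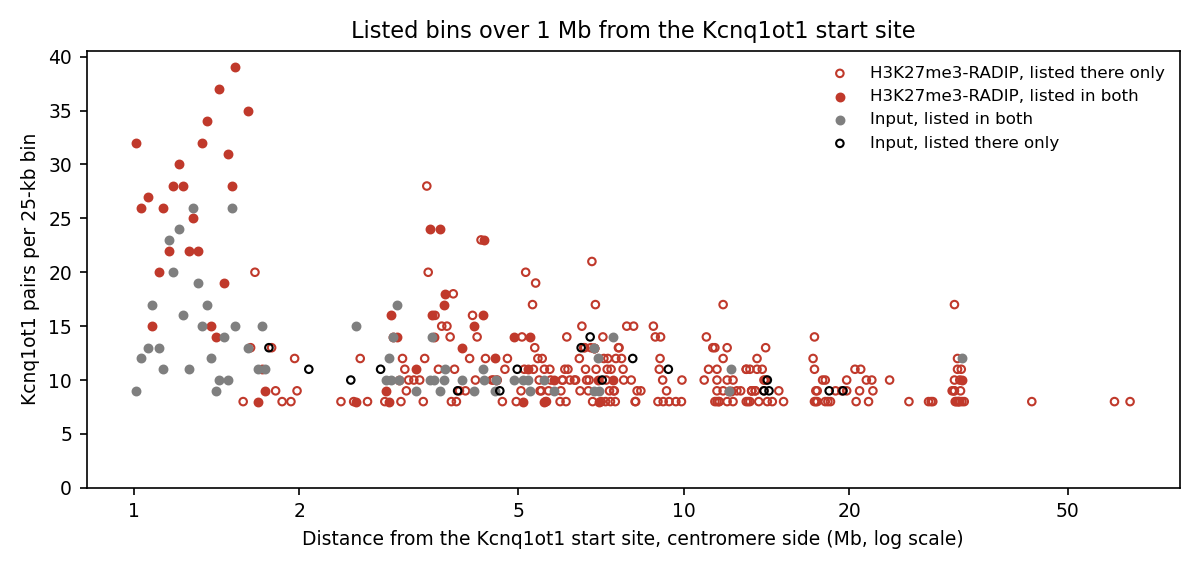
*Kcnq1ot1* pairs per 25-kb bin (y axis) against distance from its start site on the centromere side in Mb (x axis, log scale), for all listed bins over 1 Mb away; filled points are bins listed in both libraries and open points bins listed in 1. Beyond 5 Mb most points are open H3K27me3-RADIP bins, and no bin has more than 21 pairs.

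Gene starts were less common in the distant H3K27me3-RADIP bins than over the whole span in which these bins lay. Of the 190 bins, 10% held the start of a coding gene and 49.5% overlapped one, against 24.8% and 66.1% of the 2389 chromosome 7 bins over the same span. Their median GC content was 45.2% against 43.3%, and bins in which RNA tags of any gene arose were as common, 47.4% against 45.9%. The 2389 bins were not matched for distance, while 91 of the 190 lay 5 to 10 Mb away and 46 lay 10 to 15 Mb away. What position along the chromosome adds to these differences was not tested. Of the 23 Input bins, 4.35% held a coding start and 17.4% overlapped a coding gene, with a median GC content of 44.6%. Input RNA tags arose in 17.4% of these 23 bins, against 44.4% of the 2389.

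Other *cis* RNAs are given for comparison. *Airn*, the imprinted antisense RNA of the *Igf2r* domain, had a ratio of 2.35 (1.76 to 3.15), and its share of pairs over 100 kb went from 1.47% to 29.5% on 68 and 173 pairs, with 8 of its 13 H3K27me3-RADIP bins not listed in Input. *Tenm4*, a coding RNA of chromosome 7, had 1.23 (1.20 to 1.26), and its pairs over 1 Mb went from 33.4% to 43.0%, with 247 bins listed in H3K27me3-RADIP alone and 79 in Input alone. These shares were not computed over shared bins. *Meg3*, an imprinted lncRNA of another domain, had 1.14 (1.02 to 1.28), with 1.68% and 2.16% over 1 Mb. The intervals of the ratios of *Kcnq1ot1* and *Airn* overlap, and those of *Tenm4* and *Meg3* lie below both.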

How the data were processed

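The authors split reads at the bridge adaptor, aligned both tags to mm10 using BWA (version 0.7.15-r1140 in the submitters' processing notes), kept uniquely mapped pairs, assigned RNA tags to genes by strand (GENCODE M25) and DNA tags to 25-kb bins by the tag centre, and merged replicates. Beside tag coordinates, the deposited tables hold p-values and q-values. These come from the authors' negative binomial background model, with *trans* reads of each RNA as covariate, and pairs with a q-value above 0.1 were removed. A bin with fewer pairs than the model requires is absent, so lists depend on depth and on each RNA's background. The tables held 1305107 pairs in Input and 1415135 in H3K27me3-RADIP.

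Here, lines whose name was *Kcnq1ot1* or *Kcnq1* were counted per library, bin, zone and strand, and normalised to 1000000 lines of the library. The members and gene lists were chosen with earlier results of these data known. With 1 merged table per group no test was made. Shares have Wilson, differences Newcombe and ratios exact conditional intervals at 95%. Called means past 1.5-fold. Gene positions came from GENCODE M21 on the same build, where 96.1% of the gene identifiers in each table, and both members, matched with version. *Cars1*, listed under the symbol *Cars*, had no entry of its own. Named were the members, the domain list, the 5 RNAs most alike, the 5 distant bins with most pairs and the 5 bins with the largest gain and loss, and *Airn*, *Tenm4* and *Meg3*. *Fgfr2* and the genes of the band 30 to 35 Mb away were named after their values were seen. The 1.5-fold call and the ratio interval were tried on simulated counts per RNA. Python 3.11.15, numpy 2.4.6, pandas 2.3.3, scipy 1.17.1 and matplotlib 3.10.9 were used. Alternatives were a q-value limit of 0.01, repeated tag positions counted once, bins listed in both libraries, leaving out bins of the own gene, and chromosome 7 totals. The 2 limits on pairs per bin, the count without part 7 of the gene and the counts of RNAs other than both members were added after the data were seen.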

Additional observations from a re-analysis of the deposited data

How the results depend on the processing

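Of 35 alternative values for 8 results, 18 stayed within the interval of the main value, 13 moved outside it and 4 reversed. All those of *Kcnq1*, and the share of RNA tags in the first 5 of 10 parts of *Kcnq1ot1*, stayed within it. The ratio of *Kcnq1ot1* normalised pairs, 1.92, was 1.81 at a q-value limit of 0.01, 1.66 over bins listed in both libraries, 2.08 without bins of its own gene and 1.66 with chromosome 7 totals. The difference in pairs over 1 Mb, 12.0 points, was 8.46 at the stricter limit and 10.2 without its own gene, and reversed to -2.66 over shared bins. The share on the centromere side, 9.57 points higher, moved to 7.04 at the stricter limit, 0.122 over shared bins and 6.16 without its own gene. The ratio of listed bins, 2.16, was 1.71 at the stricter limit. With H3K27me3-RADIP bins kept only from 10 pairs, a limit added after the data were seen, bins numbered 292, the bin ratio was 1.54, the distance difference 6.35 and the centromere-side difference 5.58. Kept only from 19 pairs, bins numbered 134 and the 3 values reversed to 0.709, -8.36 and -3.00. Input bins were not cut and most distant H3K27me3-RADIP bins held fewer than 19 pairs, so these 3 reversals follow largely from the limit itself. *Kcnq1* had no Input pairs outside bins of its own gene, so that alternative gave no value. No paired analysis was possible because the replicates were merged in the deposited tables. For the same reason no replicate could be left out.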
